A study of Mus musculus with 12 samples.

Results

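p53, encoded by Trp53 in the mouse, is a transcription factor that raises a shared set of genes when DNA is damaged or when ribosomes, nucleotides or proteins are disturbed. Described here are Trp53 and 35 listed target genes or regulators of p53, 36 genes out of the 16080 with values in the deposited tables. The members were taken by symbol from the list given for the module, all 36 were measured in all 12 libraries, and no filter on low values removed any. The list is one of p53 target genes, with Trp53 itself and Mdm4, a partner that restrains p53, among them.

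The libraries came from alveolar epithelial type 2 cells (AEC2), the surfactant-making cells of the lung, taken at postnatal day 56 from female mice of strain Bl6 by Dispase digestion, adherence of mesenchymal cells to plastic and bead depletion of CD45+ cells. The genotypes at the surfactant protein C gene Sftpc were SP-C WT, SP-C C185Gneo, which the series calls hypomorphic, and SP-C C185G, the mutant, with 4 libraries each. All 3 groups carry the same treatment label, tamoxifen at 200 mg per kg on 2 days with collection on day 7. What drives the tamoxifen-induced change of the allele is not given in the sources used here. The labels do not say that each library is a mouse of its own, so the p-values speak only for the spread among these libraries, part of which may be technical. Genotypes were read from the genotype field, since the titles of the C185Gneo libraries carry the name C185G and those of the C185G libraries another code.

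Total counts over the measured genes ran from 15659512 to 23444287 per library. Levels are normalized CPM, the count multiplied by the authors' library factor and given per mean of the 12 scaled totals, and changes are on the authors' log2 scale, with standard errors (SE) from 1 limma fit over all genes and all 12 libraries and p-values adjusted after Benjamini and Hochberg. The scaled totals differed by up to 1.08 times, with the 4 C185G libraries lowest. Sftpc itself was lowest in C185Gneo, at 895 ± 143 normalized CPM (mean ± SD, n = 4, as for every ± below), against 2833 ± 256 for C185G and 7467 ± 194 for WT. Of the AEC2 markers 8 of 8 were lower in C185G than in WT, and their summed level was 27730 to 31950 normalized CPM in WT, 23120 to 26090 in C185Gneo and 12240 to 14170 in C185G. This sum includes the edited gene Sftpc. For each of the other AEC2 markers the C185Gneo range overlapped that of WT, as for Sftpb (8007 to 8443 against 7215 to 8252). Markers of other cells were present: the summed level of 8 mesenchymal genes was 402.8 to 616.8 in WT, 154.6 to 466.5 in C185Gneo and 559.2 to 760.9 in C185G, and that of 7 endothelial genes 154.7 to 242 in WT, 138.3 to 223.8 in C185Gneo and 113.3 to 135.1 in C185G. For 7 alveolar type 1 markers it was 1897 to 2342 in WT, 1898 to 2213 in C185Gneo and 1870 to 2307 in C185G. Within that sum 2 markers were called higher in C185G than in WT (Pdpn by 1.35 and Emp2 by 0.40) and 1 lower (Ager by 0.32). Of 9 myeloid markers 6 were measured, and without Lyz2, which AEC2 also express, they summed to 59.41 to 80.72 in WT, 51.62 to 66.3 in C185Gneo and 60.39 to 74.48 in C185G. Of the myeloid markers, Cd68 (0.94) and Mrc1 (0.54) were called higher in C185G than in WT and Lyz2 (-2.16) lower. Of 8 lymphoid markers 2 were measured, at 3.056 to 5.892 over all libraries. The 5 club and goblet markers summed to 5348 to 7323 in WT, 5715 to 7126 in C185Gneo and 4562 to 5214 in C185G, below every control library. The 4 mesothelial markers summed to 325.8 to 462.5 in WT, 65.35 to 558.5 in C185Gneo and 501.5 to 660.7 in C185G, above every WT library. For 6 ciliated markers the ranges were 1409 to 1901, 1261 to 1692 and 1240 to 1611 in the same order. The endothelial sums of C185G also lay below every control library. Called lower in C185G than in WT were 5 endothelial, 2 ciliated, 2 club and goblet and 1 lymphoid marker. Of the mesenchymal markers 1 was called higher, and 0 mesothelial markers were called. The part of these cells in the changes of the p53 genes was not tested. In bulk samples, fewer cells of a type and less RNA per cell cannot be told apart.

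p53 is held low in unstressed cells by MDM2, a ubiquitin ligase that marks it for the proteasome, and by the related protein MDM4. Activation works mostly through the protein, which then escapes MDM2, binds a site made of 2 copies of a 10-base unit and switches on genes of cell cycle arrest (Cdkn1a), apoptosis (Bax, Bbc3, Pmaip1), repair (Ddb2, Xpc) and metabolism (Tigar, Sesn1). Mdm2 is itself a target, which closes a feedback loop. In the lung, p53 activity in AEC2 and in the transitional cells that lead to alveolar type 1 cells has been described after injury.

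The promoters of 29 members are in the RefSeq promoter table (build GRCm38.p6), as windows from 250 bases before to 50 bases after each start. Ddb2, Perp, Rrm2b, Trp53inp1, Xpc and Zmat3 are not in it. The chromosome that carries Pmaip1 was left out of the search, for members and for all genes. Whether Pmaip1 has a window was therefore not established. Each window on the other chromosomes was searched for the p53 full site, 2 units of 10 bases with 0 to 3 bases between them. The C and G of the core CNNG had to match in both units, and at most 1 other base of the 20 could differ. The unit reads alike on both strands, so 1 pass covers both. A match was present in 3 of the 29 members (10.3%), against 68 of 27025 genes with a window (0.252%). With up to 2 differing bases, a setting chosen after the data were seen, 5 of 29 members (17.2%) and 418 of all 27025 genes (1.55%) had a match. These 5 sites are shown because they are the stretches of member promoters that carry the p53 letters themselves. Each is given 5′ to 3′ on the strand of the gene with 20 bases on either side, and the 2 units are in capitals.
Cdkn1a, chr17:29090908-29090967, plus strand, 1 differing base: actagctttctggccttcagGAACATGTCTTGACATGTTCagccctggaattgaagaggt
Ccng1, chr11:40755442-40755501, minus strand, 1 differing base: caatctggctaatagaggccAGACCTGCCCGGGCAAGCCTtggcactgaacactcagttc
Rps27l, chr9:66946276-66946335, plus strand, 1 differing base: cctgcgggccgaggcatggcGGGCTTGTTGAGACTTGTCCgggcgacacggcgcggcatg
Bax, chr7:45467059-45467119, minus strand, 2 differing bases: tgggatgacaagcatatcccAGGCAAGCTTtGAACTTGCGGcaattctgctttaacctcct
Sesn1, chr10:41887233-41887295, plus strand, 2 differing bases: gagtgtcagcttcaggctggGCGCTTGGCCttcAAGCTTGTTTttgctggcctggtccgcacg
The Cdkn1a site lies 32 to 51 bases before the upstream of 2 starts and 2822 bases before the downstream start. The Ccng1 site lies 176 to 195 bases before its start, and the Bax site 181 to 201 bases before its start, inside the annotated gene Gm45808. The Rps27l site is 98 to 117 bases before the second start and within an intron of transcripts from the first, as is the Sesn1 site for its upstream start. Of the genes with these sites, Cdkn1a, Ccng1, Rps27l and Bax were higher in C185G than in WT and Sesn1 was lower, with the values given for each below. A match is a description of letters in a window, not of a bound site.

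In C185G against WT, 18 of the 36 genes were higher and 6 lower at an adjusted p under 0.05, and 12 did not pass the test. Over all genes, 27.3% were called higher and 27.8% lower, 55.0% in all. The groups did not overlap for 17 members that were higher and 7 that were lower, where 25.2% and 23.5% of all genes did so. The median change was 0.22 over the members and -0.00044 over all genes. With library totals as the scaling, 59.9% of all called genes were higher in place of 49.6%, and the member median was 0.30. Changes above 1 on the log2 scale were called for 8 members (Phlda3, Eda2r, Ccng1, Ak1, Zmat3, Bax, Aen and Slc19a2), against 5.05% of all genes. No member fell by as much, and the lowest was Rrm2b at -0.60.

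In C185G against C185Gneo, 17 genes were higher and 7 lower, where 29.2% and 28.7% of all genes were called (57.8% in all). The groups did not overlap for 17 higher members (25.7% of all genes) and 7 lower (24.2%), with a median of 0.20 over the members and 0.0038 over all genes. Library totals moved the share of called genes that were higher from 50.4% to 58.1% there. This comparison uses the same 4 C185G libraries. In C185Gneo against WT limma called 0 of the 36 genes, 0 had an unadjusted p under 0.05, and voom weights on the recovered counts also gave 0 of both. The background there was 0.541% of all genes, 0.249% higher and 0.292% lower. The changes ran from -0.65 for Eda2r to 0.23 for Ddb2.

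**Figure D1:**
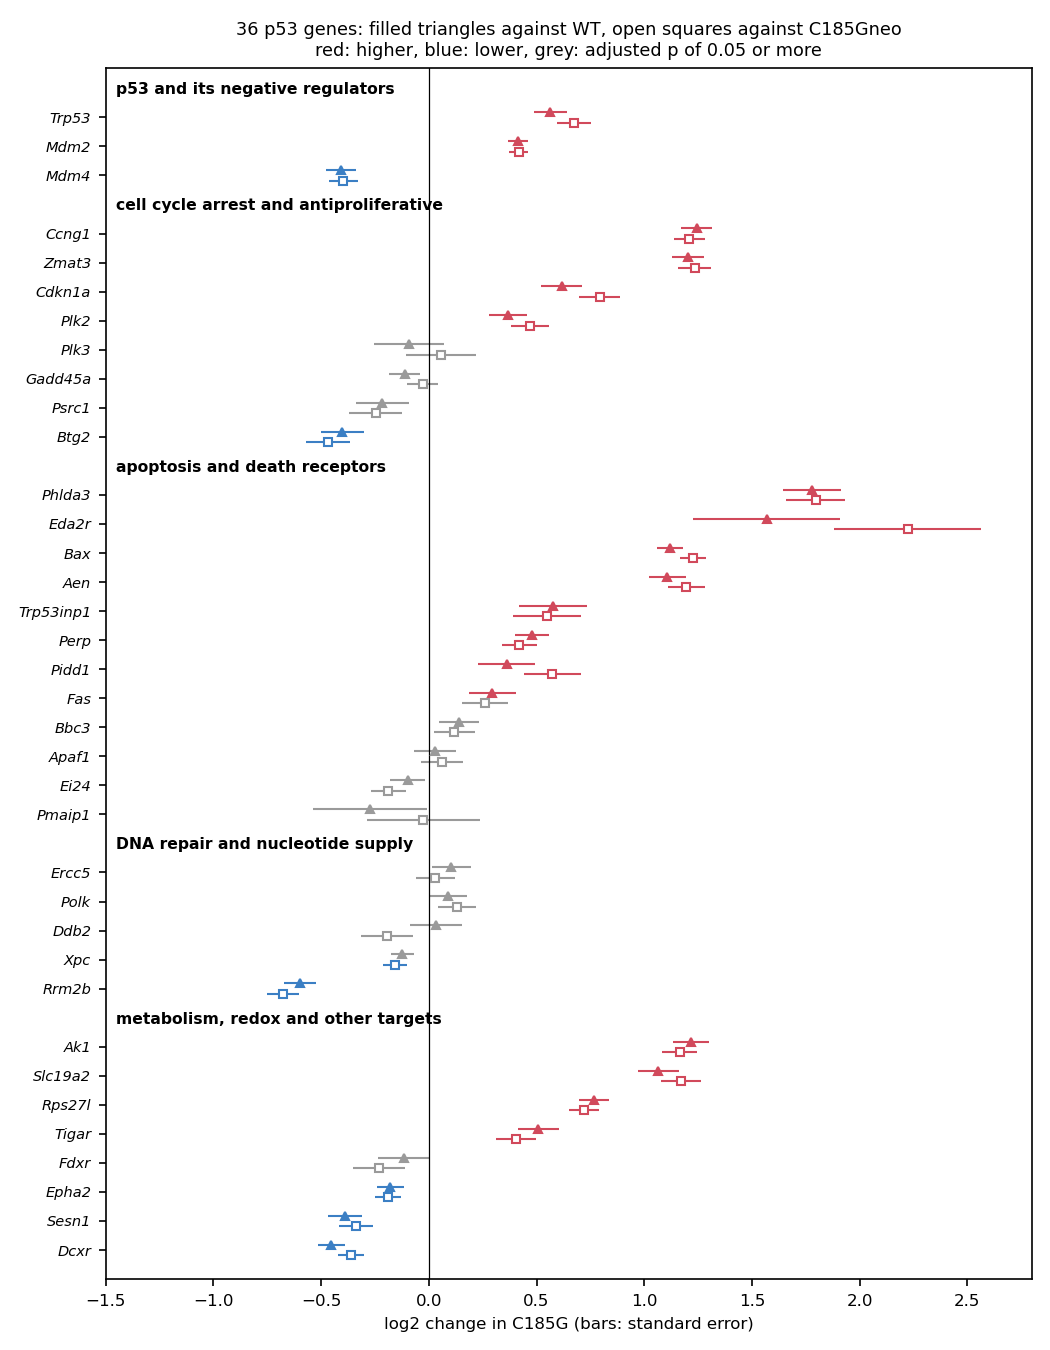
Log2 change of all 36 genes in C185G against WT (filled triangles) and against C185Gneo (open squares), with standard errors, grouped by role; red is higher, blue lower and grey an adjusted p of 0.05 or more. Triangles and squares of a gene lie close together for most genes, and the widest bars are those of Eda2r and Pmaip1.

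Trp53 and Mdm2 were higher in C185G than in either control, and Mdm4 was lower. Trp53 (ENSMUSG00000059552, chr11:69580359-69591873, GRCm38, plus strand) stood at 37.1, 35.2, 35.5 and 32.9 normalized CPM in WT replicates 1 to 4, at 32.8, 34.2, 30.2 and 33.3 in C185Gneo and at 60.9, 51.5, 49.2 and 47.4 in C185G. Every C185G library lay above every control library, and replicate 1 was the highest of them. The change was 0.56 against WT (SE 0.0777, adjusted p = 3.56e-05) and 0.67 against C185Gneo (adjusted p = 6.6e-06). Between the controls it was -0.11 (adjusted p = 0.734).

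Mdm2 (ENSMUSG00000020184, chr10:117688875-117710758, minus strand) was 133, 135, 133 and 138 in WT, 128, 139.9, 133 and 137 in C185Gneo and 182, 179, 184.9 and 172 in C185G. All C185G libraries were above all controls, with a difference of 0.41 against WT and 0.42 against C185Gneo (SE 0.0451 and 0.0451, adjusted p = 4.22e-06 and 3.56e-06). Mdm4 (ENSMUSG00000054387, chr1:132959484-133030561, minus strand) was 125, 127, 127 and 121 in WT, 127, 121, 129 and 120.3 in C185Gneo and 109, 93.6, 93.1 and 83 in C185G. Its groups did not overlap either. Mdm4 fell by 0.41 against WT (SE 0.0678, adjusted p = 0.000178) and by 0.40 against C185Gneo (adjusted p = 0.00021). The inhibitors therefore moved in opposite directions: per kb of exon, Mdm2 went from 26.5 to 35.3 normalized CPM and Mdm4 from 8.45 to 6.4.

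**Figure D2:**
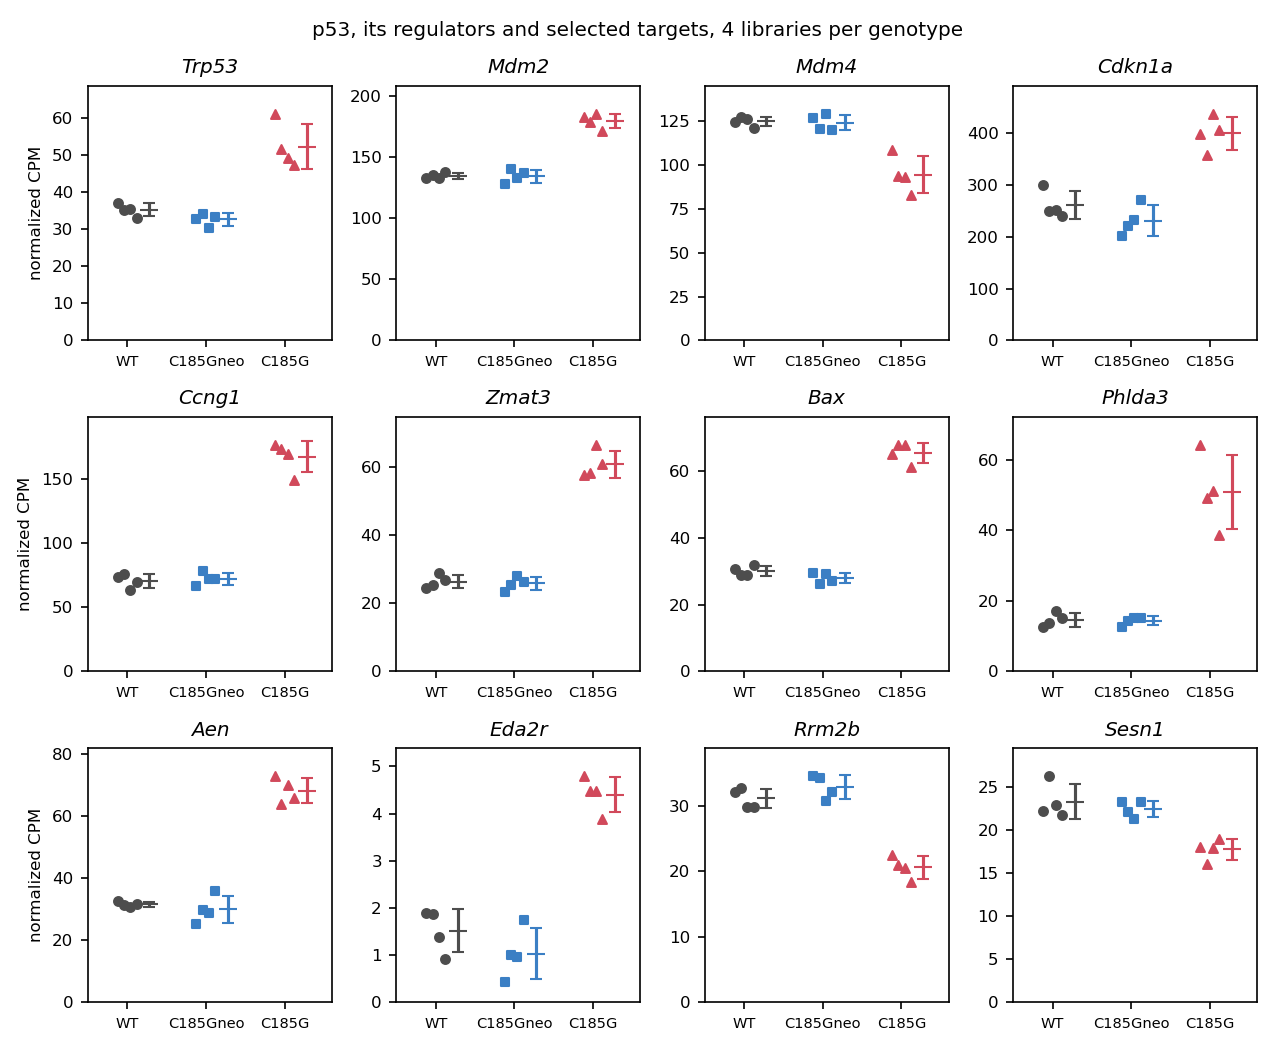
Normalized CPM of 12 of the genes in each library of WT (grey circles), C185Gneo (blue squares) and C185G (red triangles), with the mean and SD of the 4 libraries beside the points; axes start at 0. For Bax the C185G libraries lie between 61.1 and 67.8 and all control libraries between 26.3 and 31.9.

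Of the 8 genes of cell cycle arrest and related control, 4 were higher in C185G than in WT (Ccng1, Zmat3, Cdkn1a and Plk2), 1 was lower (Btg2) and 3 did not pass the test (Plk3, Gadd45a and Psrc1). The 5 of 8 called are near the share over all genes, 55.0%. Cdkn1a (ENSMUSG00000023067, chr17:29090976-29100727, plus strand) encodes p21, the inhibitor of cyclin-dependent kinases through which p53 halts the cycle. It was 300.3, 249, 252 and 240.2 in WT, 201, 219.8, 232 and 271 in C185Gneo and 397, 357, 436 and 405 in C185G. The lowest C185G library, replicate 2, was above the highest control, WT replicate 1. Cdkn1a changed by 0.62 against WT (SE 0.0942, adjusted p = 9.34e-05) and by 0.79 against C185Gneo (adjusted p = 9.76e-06).

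Ccng1 (ENSMUSG00000020326, chr11:40748552-40755311, minus strand) encodes cyclin G1, which recruits a phosphatase to MDM2, and Zmat3 (ENSMUSG00000027663, chr3:32334792-32366014, minus strand) a zinc finger protein that binds RNA and acts in splicing. Ccng1 rose from 73.5, 75.5, 63.3 and 69.6 in WT to 176, 173, 169 and 149 in C185G, with 66.4, 78.2, 71.8 and 71.9 in C185Gneo. These levels are a 2.37-fold difference from WT (log2 1.24, SE 0.0715, adjusted p = 1.22e-08) and 1.21 on the log2 scale from C185Gneo (adjusted p = 1.23e-08). Zmat3 was 24.4, 25.2, 28.9 and 26.8 in WT, 23.4, 25.4, 28.1 and 26.2 in C185Gneo and 57.4, 58.1, 66.2 and 60.6 in C185G. Its change, 1.20 (SE 0.0755, adjusted p = 2.61e-08) against WT and 1.23 against C185Gneo (adjusted p = 1.61e-08), was close in size to that of Ccng1.

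Plk2, a polo-like kinase of the stress response, was already high, at 342 ± 31.8 normalized CPM in WT and 319 ± 35.4 in C185Gneo, and reached 441 ± 38.2 in C185G. WT replicate 3 lay just above the lowest C185G library, so these groups overlapped (0.37, adjusted p = 0.00289). Those of C185G and C185Gneo did not (0.47, adjusted p = 0.000437). Btg2, an antiproliferative gene that is also induced by growth factors and by tissue dissociation, went the other way. It was 279.5, 283, 339.8 and 341 in WT, 264, 313, 357 and 373 in C185Gneo and 237, 238, 223 and 238 in C185G, and fell by 0.40 and 0.47 against WT and C185Gneo (adjusted p = 0.00389 and 0.00131).

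The 3 genes that did not pass were Gadd45a, a growth arrest gene of stress signalling (175 ± 6.22 in WT, 165 ± 5.33 in C185Gneo and 163 ± 20.2 in C185G), Plk3 and Psrc1, a spindle-associated gene. The exons of Gadd45a share 337 bases with E230016M11Rik on the opposite strand, so reads there are uncertain. Plk3 had the wider spread: 62.3, 67.2, 96.9 and 102 in C185G against 82.1 to 90.4 over the WT and 61.5 to 93.6 over the C185Gneo libraries. The C185G libraries thus lay on both sides of WT, and the change of Plk3 was -0.09 (SE 0.163, adjusted p = 0.647). Psrc1 was at 7.11 ± 0.23 in WT, 7.28 ± 0.548 in C185Gneo and 6.18 ± 1.02 in C185G (-0.22, adjusted p = 0.15). Without C185G replicate 1, Gadd45a (-0.19, adjusted p = 0.00641) and Psrc1 (-0.30, adjusted p = 0.0437) were called lower than in WT.

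The immediate early and dissociation list, taken up because Btg2, Plk2 and Plk3 also respond to cell isolation, was mostly lower in C185G. Of 22 genes, 15 fell against WT and 3 rose (median -0.48), beside 27.8% lower and 27.3% higher over all genes. Against C185Gneo 15 fell and 4 rose (median -0.37), beside 28.7% and 29.2% of all genes. Between the controls 0 of 22 were called (median -0.12). Nr4a1, an orphan nuclear receptor, fell by 1.56 (adjusted p = 8.66e-08), Nr4a2 by 0.98 (adjusted p = 7.33e-07) and Klf2 by 1.04 (adjusted p = 4e-06), whereas Myc (0.93), Fosl1 (0.52) and the phosphatase gene Dusp1 (0.45) rose. The part of this response in the level of Btg2 was not tested.

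Among the 12 genes of apoptosis and death receptor signalling, 8 were higher in C185G than in WT, 0 were lower and 4 did not pass the test, beside 27.3% higher and 27.8% lower over all genes. Bax (ENSMUSG00000003873, chr7:45461697-45466898, minus strand) encodes the protein that permeabilizes the outer mitochondrial membrane. It was 30.7, 29, 28.8 and 31.9 in WT, 29.3, 26.3, 29.2 and 27.1 in C185Gneo and 65.2, 67.8, 67.7 and 61.1 in C185G. The lowest C185G library, at 61.1, was far above the highest control, at 31.9, and the change was 1.12 against WT (SE 0.0617, adjusted p = 9.03e-09) and 1.23 against C185Gneo (adjusted p = 3.46e-09). Of the stretches of 50 bases in Bax transcripts 8.51% also occur in Gm45808.

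Phlda3 (ENSMUSG00000041801, chr1:135766119-135769136, plus strand), whose product is a pleckstrin homology domain protein that restrains the kinase AKT, had the largest change of the module against WT. Its levels were 12.6, 13.8, 17.1 and 15.1 in WT, 12.7, 14.4, 15.3 and 15.2 in C185Gneo and 64.2, 49.2, 51.2 and 38.7 in C185G. The C185G libraries differed among themselves more than for most members, with replicate 1 highest and replicate 4 lowest, as for Trp53. Phlda3 was 3.43-fold higher than in WT (log2 1.78, SE 0.136, adjusted p = 1.8e-07) and 1.80 higher on the log2 scale than in C185Gneo (adjusted p = 1.35e-07).

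Eda2r (ENSMUSG00000034457, chrX:97333840-97377216, minus strand), the receptor of the ectodysplasin form EDA-A2, was the weakest of the module per kb of exon but changed the most against C185Gneo. It had 10 to 96 counts per library, and stood at 1.89, 1.87, 1.39 and 0.925 normalized CPM in WT, 0.428, 1, 0.952 and 1.74 in C185Gneo and 4.79, 4.47, 4.47 and 3.88 in C185G. The C185Gneo libraries differed widely among themselves, and all C185G libraries lay above all controls. The change was 1.57 against WT (SE 0.343, adjusted p = 0.0016) and 2.22 against C185Gneo (adjusted p = 9.44e-05).

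Aen (ENSMUSG00000030609, chr7:78895854-78911209, plus strand), an exonuclease that enhances apoptosis, was 32.8, 31.5, 30.6 and 31.6 in WT, 25.4, 29.9, 28.8 and 35.8 in C185Gneo and 72.9, 63.9, 70.0 and 66 in C185G. The change of 1.11 against WT (SE 0.0866, adjusted p = 1.99e-07) and 1.20 against C185Gneo (adjusted p = 8.17e-08) matched Bax in size. Trp53inp1, a p53 cofactor of stress and autophagy, rose from 214 ± 36 in WT to 316 ± 25.4 in C185G (0.58, adjusted p = 0.00865), with 219.8 ± 48.3 in C185Gneo. Perp, a tetraspan protein of desmosomes and apoptosis, rose from 76.9 ± 3.48 to 108 ± 13.3 (0.48, adjusted p = 0.000178), with 80.1 ± 4.67 in C185Gneo.

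The smallest increases were those of Fas and Pidd1. Fas, the death receptor, was 19.9, 18.2, 20.5 and 20.03 in WT and 27, 25.3, 21.5 and 23 in C185G, and these did not overlap, but the change was 0.30 (adjusted p = 0.0326), and leaving out any of WT 1, WT 2, WT 4, C185G 1 and C185G 2 took the adjusted p to between 0.0511 and 0.087. Against C185Gneo, whose libraries ran from 16.3 to 22.8, Fas missed the threshold (0.26, adjusted p = 0.0533). It passed there with library totals, quantile normalization or voom weights (adjusted p = 0.022 to 0.0454) and without C185Gneo replicate 2 or 4 or C185G replicate 3 (adjusted p = 0.0296 to 0.0334). Pidd1, a scaffold of caspase 2 activation, rose from 4.89 ± 0.597 in WT to 6.3 ± 0.806 in C185G (0.36, adjusted p = 0.0319). Leaving out any of WT 1, WT 4, C185G 2 and C185G 4 took it past the threshold (0.0504 to 0.103). Against C185Gneo (4.21 ± 0.381) Pidd1 changed by 0.57 (adjusted p = 0.00217).

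Bbc3 and Pmaip1, the BH3-only genes of the module, which act upstream of Bax, did not pass. Bbc3 (PUMA) was 27, 27.9, 34 and 31.1 in WT, 31.5, 31.6, 31.6 and 26.8 in C185Gneo and 38.5, 30.7, 31.3 and 31.7 in C185G, so that a single C185G library, replicate 1, lay above all others (0.14, SE 0.094, adjusted p = 0.224). Pmaip1 (NOXA) had only 24 to 66 counts per library, with 2.92, 2.15, 3.57 and 2.59 in WT, 2.61, 2.22, 2.32 and 2.15 in C185Gneo and 1.24, 2.51, 3.6 and 2.4 in C185G (-0.27, SE 0.264, adjusted p = 0.396). The C185G libraries lay on both sides of WT.

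Apaf1, the core of the apoptosome, was at 15.6 ± 2.04 in WT, 15.2 ± 0.939 in C185Gneo and 15.8 ± 0.91 in C185G (0.03, adjusted p = 0.815). Ei24, an ER membrane protein first found as a p53-induced gene, was at 73.2 ± 5.64 in WT, 77.7 ± 1.24 in C185Gneo and 68.6 ± 8.56 in C185G (-0.10, adjusted p = 0.317). Against C185Gneo every C185G library was lower for Ei24, with -0.19 and an adjusted p = 0.06; without C185G replicate 3 or 4 the adjusted p was 0.0264 and 0.025, and with quantile normalization 0.0443.

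Of 19 listed apoptosis genes outside the module, 5 rose and 8 fell in C185G against WT (median 0.08), beside 27.3% higher and 27.8% lower over all genes. Of the same 19, 5 rose and 8 fell against C185Gneo (median 0.04), beside 29.2% and 28.7% of all genes. Between the controls 0 of the 19 were called. The BH3-only genes Bmf and Bcl2l11 (BIM), which are not classical p53 targets, fell by 2.36 and 1.58 (adjusted p = 6.27e-09 and 2.19e-08), and the antiapoptotic gene Bcl2l2 fell by 0.34. Bak1, the partner of Bax in the outer membrane, rose from 14.2 ± 0.889 to 30.0 ± 4.25 (1.07, adjusted p = 6.61e-07). Bcl2l1 (BCL-XL), which opposes both, rose by 0.56 (adjusted p = 0.000481) and Casp8 by 0.47 (adjusted p = 2.3e-05).

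Of the 5 genes of DNA repair and nucleotide supply, 0 were higher in C185G than in WT, 1 was lower and 4 did not pass the test. With 27.8% of all genes called lower, a count of 1 in 5 is near the background. Rrm2b (ENSMUSG00000022292, chr15:37923952-37961318, minus strand) encodes the p53-inducible subunit of ribonucleotide reductase. It was 32.1, 32.7, 29.9 and 29.8 in WT, 34.5, 34.2, 30.7 and 32.1 in C185Gneo and 22.6, 21, 20.4 and 18.4 in C185G. All C185G libraries lay below all controls, a change of -0.60 against WT (SE 0.0729, adjusted p = 1.21e-05) and -0.68 against C185Gneo (adjusted p = 3.48e-06). Of the stretches of 50 bases in Rrm2b transcripts 10.7% also occur in transcripts of other genes, so a part of its reads is uncertain. The same holds for 8.49% of those of Cdkn1a, 7.31% of those of Mdm4, 6.46% of those of Ei24 and 3.95% of those of Trp53.

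None of the nucleotide excision repair genes passed against WT. Ddb2, a damage sensor, was 10.3 ± 0.699 in WT, 12.1 ± 0.906 in C185Gneo and 10.7 ± 1.88 in C185G (0.03 against WT, SE 0.12, adjusted p = 0.832). All C185Gneo libraries of Ddb2 lay above all WT libraries, the only member of which this was so between the controls (3.57% of all genes, with 3.29% lower and 6.86% in either direction), at a change of 0.23 (adjusted p = 0.594). Its exons share 652 bases with Acp2 on the opposite strand, and since the strand setting of the counting is not given in the sources used here, its reads cannot be told apart from those of Acp2 there. Xpc, a second damage sensor, was 41.1 to 42.8 in WT, 40.0 to 45 in C185Gneo, and the C185G libraries ran from 37.6 to 39.9. They did not overlap those of WT, but the change was -0.12 (adjusted p = 0.0682). Against C185Gneo it was -0.16 (adjusted p = 0.0225), which was lost with library totals (adjusted p = 0.153), with only those 8 libraries fitted (0.0507) and without C185Gneo replicate 1 or 2 (0.0699 and 0.0685). The endonuclease gene Ercc5 (22.5 ± 1.08 in WT, 23.8 ± 2.5 in C185Gneo and 24.3 ± 2.39 in C185G; 0.10, adjusted p = 0.343) and Polk, a translesion polymerase (35.6 ± 2.38, 34.5 ± 1.3 and 38.1 ± 5.43; 0.09, adjusted p = 0.412), did not pass either.

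Of the 8 metabolic and other targets, 4 were higher than in WT (Ak1, Slc19a2, Rps27l and Tigar), 3 lower (Dcxr, Sesn1 and Epha2) and 1, Fdxr, did not pass, where 27.3% of all genes were higher and 27.8% lower. Ak1 (ENSMUSG00000026817, chr2:32621758-32635058, plus strand), adenylate kinase, which balances adenine nucleotides, was 52.7, 52.2, 51 and 50.1 in WT, 58.8, 61, 45.4 and 49.9 in C185Gneo and 113, 127, 124 and 115 in C185G (1.22, SE 0.0823, adjusted p = 5.12e-08). Slc19a2, the thiamine transporter, was 14.6, 13.2, 14.7 and 12.1 in WT, 13.8, 11.9, 11.4 and 13.6 in C185Gneo and 28.1, 25.9, 29.2 and 31.1 in C185G (1.07, SE 0.094, adjusted p = 6.11e-07). In both, the lowest C185G library was well above the highest control. Against C185Gneo the changes were 1.16 and 1.17 (adjusted p = 6.32e-08 and 2.11e-07).

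Rps27l, a ribosomal protein paralogue that p53 induces, rose from 38.5 ± 2.69 in WT to 65.4 ± 4.42 in C185G, with 39.6 ± 2.36 in C185Gneo (0.77 and 0.72, adjusted p = 7.9e-07 and 1.19e-06). Its paralogue Rps27 did not rise with it: 127 ± 3.38 in WT, 133 ± 4.6 in C185Gneo and 119 ± 12.2 in C185G (-0.10 against WT, adjusted p = 0.21, and -0.17 against C185Gneo, adjusted p = 0.0438). Of the 904 stretches of 50 bases in Rps27l transcripts, 101 (11.2%) also occur in transcripts of other genes, so a part of its reads is uncertain. Tigar, which lowers glycolytic flux, rose from 13.8 ± 1.79 to 19.5 ± 0.954 (0.51, adjusted p = 0.000427) and stood at 14.7 ± 0.697 in C185Gneo.

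Sesn1, a sestrin that inhibits mTORC1 in response to p53 and FOXO factors, fell. It was 22.2, 26.2, 22.9 and 21.7 in WT, 23.2, 22, 21.2 and 23.2 in C185Gneo and 18, 16, 17.9 and 19 in C185G (-0.39 and -0.34, adjusted p = 0.000874 and 0.00225). The highest C185G library stayed under the lowest control. Dcxr, dicarbonyl and L-xylulose reductase, fell from 215 ± 7.03 to 157 ± 8.63 (-0.45, adjusted p = 2.9e-05), with 202 ± 16.1 in C185Gneo.

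Epha2, an ephrin receptor kinase, was the most abundant member per kb of exon and, of the genes called against WT, had the smallest change. It went from 1039.7 ± 42.8 in WT to 919 ± 49 in C185G, with 1049 ± 79 in C185Gneo (-0.18, adjusted p = 0.0259). This call was lost with library totals as the scaling (-0.10, adjusted p = 0.172), with quantile normalization (-0.09, adjusted p = 0.193), and when WT 1, C185G 2 or C185G 4 was left out (adjusted p = 0.0521 to 0.0796). Against C185Gneo the change was -0.19 (adjusted p = 0.0185), lost under the same scalings (adjusted p = 0.0845 and 0.0942) and without C185Gneo 4 or C185G 4 (adjusted p = 0.0599 and 0.0594). Fdxr, ferredoxin reductase of mitochondria, was 10.8, 8.61, 6.92 and 9.42 in C185G, 8.64 to 10.3 in WT and 9.88 to 10.7 in C185Gneo (-0.12, adjusted p = 0.437). Without C185G replicate 1 it was called lower than in C185Gneo (-0.33, adjusted p = 0.0233), and so were Psrc1 (-0.33, adjusted p = 0.0273) and Ddb2 (-0.29, adjusted p = 0.0398).

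**Figure D3:**
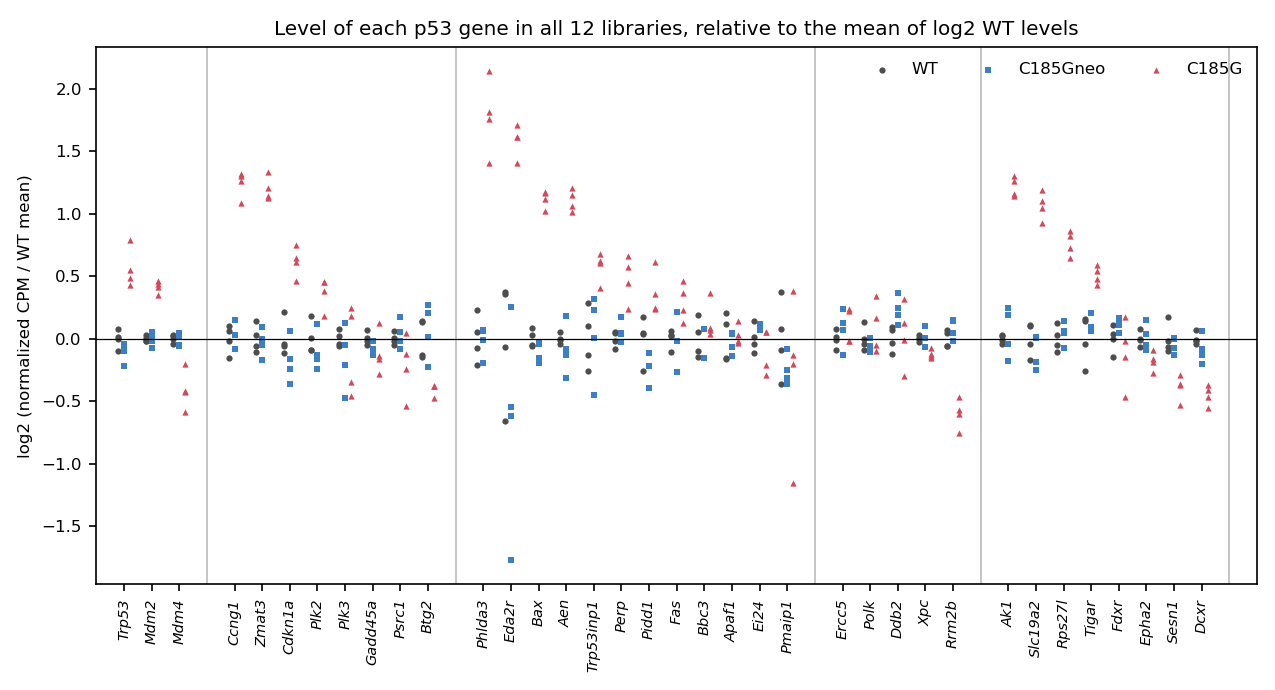
Level of each of the 36 genes in all 12 libraries as log2 of normalized CPM over the mean of the WT libraries on the log2 scale, grouped by role with WT (grey circles), C185Gneo (blue squares) and C185G (red triangles). The C185Gneo points lie around those of WT, with 0 of 36 genes called, and the C185G points stand apart for genes such as Ccng1 and Bax while they spread through the controls for Plk3 and Pmaip1.

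Per kb of exon, on which levels can be compared between genes, the WT order was led by Epha2 (222 normalized CPM per kb), Dcxr (188), Btg2 (113), Gadd45a (99.1), Plk2 (76.2) and Cdkn1a (73.3). It ended with Pidd1 (1.08), Pmaip1 (1.03) and Eda2r (0.258). In C185G Cdkn1a reached 112 and Btg2 came down to 85.3, so that their order was exchanged. Phlda3 went from 9.4 to 32.6. The members with log2 changes above 1 were thus of middle or low level in WT, at most 20.1 (Ccng1), while the members that were highest in WT fell or changed by less.

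Other p53 targets, a list of 48 genes that holds none of the members, had 47 measured. Of these, 16 were higher and 14 lower in C185G against WT (median 0.03). Against C185Gneo 15 were higher and 17 lower (median 0.01), beside 29.2% and 28.7% of all genes. The counts against WT are near the 27.3% and 27.8% of all genes. Among them Sfn, which encodes the 14-3-3 sigma protein, rose from 347 ± 14.8 to 699 ± 28.9 (1.01, adjusted p = 4.35e-08), Gdf15, a stress cytokine, rose by 1.23 (adjusted p = 1.65e-05) and Cgref1, a growth regulator, by 1.40 (adjusted p = 1.78e-05). Dram1, an autophagy regulator, fell from 1136 ± 98.9 to 562 ± 62.7 (-1.02, adjusted p = 8.47e-07), Sertad1 fell by 0.82 and the antiproliferative gene Tob1 by 0.57.

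Upstream, of 33 measured kinases, sensors and modulators of p53, 12 were higher and 10 lower in C185G against WT (median -0.04). These counts are near the 27.3% and 27.8% of all genes. Against C185Gneo 11 were higher and 10 lower (median 0.06), beside 29.2% and 28.7% of all genes. Huwe1, a ubiquitin ligase that can act on p53, rose from 709 ± 57.9 to 1072 ± 49.2 (0.60, adjusted p = 2.77e-06). Rpl11, a ribosomal protein that can bind MDM2, rose by 0.46 (adjusted p = 2.48e-05) and the repair gene Brca1 by 1.25 (adjusted p = 3.65e-05). The ASPP genes Ppp1r13b and Trp53bp2, whose products steer p53 towards apoptosis genes, fell by 0.82 and 0.43 (adjusted p = 2.57e-07 and 4.16e-05), and the acetyltransferase gene Ep300 by 0.42 (adjusted p = 6.5e-05).

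Cell cycle genes that p53 is known to lower through p21 and the DREAM repressor complex were higher, not lower, in C185G. Of 33 genes, 28 rose and 2 fell against WT (median 0.98), beside 27.3% higher and 27.8% lower over all genes. Against C185Gneo 27 rose and 2 fell (median 0.98), beside 29.2% and 28.7% of all genes. Between the controls 0 were called (median 0.11). Ube2c, of the anaphase ubiquitin machinery, rose from 2.16 ± 0.591 to 9.14 ± 2.28 (2.08, adjusted p = 5e-06), Rrm2 by 1.85 (adjusted p = 2.33e-06) and Mcm5, of the replicative helicase, by 1.49 (adjusted p = 3.84e-06). Bub1 and Bub1b, kinases of the spindle checkpoint, fell by 1.56 and 0.48 (adjusted p = 6.65e-06 and 0.0137). Which cells carried these transcripts was not measured.

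Other inhibitors of cyclin-dependent kinases were listed with the pocket proteins, D cyclins and DREAM subunits. Of 20 measured genes of this list 7 rose and 3 fell against WT (median -0.05), beside 27.3% higher and 27.8% lower over all genes. Against C185Gneo 5 rose and 4 fell (median -0.09), beside 29.2% and 28.7% of all genes. Cdkn1b, which encodes p27, fell from 70.3 ± 4.74 to 43.7 ± 3.49 (-0.69, adjusted p = 1.95e-06), and Cdkn2b, which encodes p15, rose from 10.8 ± 2.12 to 22 ± 6.38 (adjusted p = 0.00161). The DREAM subunit gene Lin54 rose by 1.28 (adjusted p = 1.33e-06) and Lin37 by 0.59 (adjusted p = 0.00128), whereas Lin52 fell by 0.65 (adjusted p = 1.79e-05) and the D cyclin gene Ccnd2 by 0.43 (adjusted p = 0.0146). Cdkn2a was not analysed here.

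**Figure D4:**
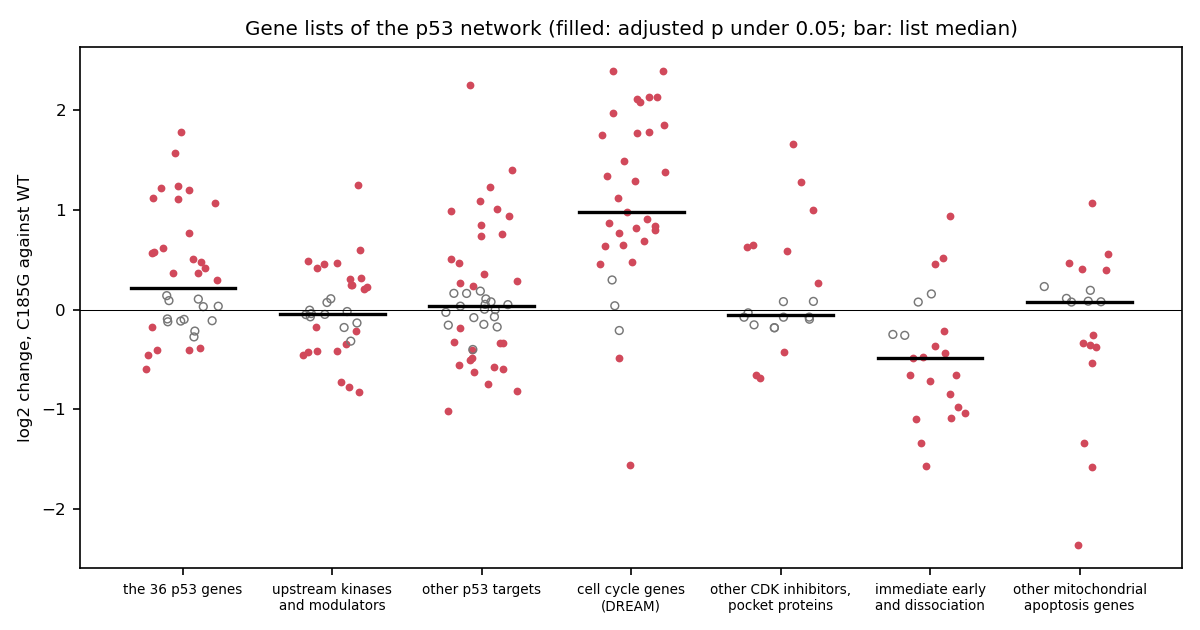
Log2 change in C185G against WT of the 36 p53 genes and of 6 other lists of the p53 network, each gene 1 point (filled: adjusted p under 0.05) with the list median as a bar. The median of the 36 genes is 0.22, that of the cell cycle list 0.98 and that of the immediate early list -0.48.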

How the data were processed

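The deposited files hold 1 log2 value per Ensembl gene and library. As the values themselves show, each deposited log2 value is that of a sum, the whole count and 0.5, multiplied by a factor of its library, and the counts recovered from the deposited values were whole for 100% of genes (tolerance 1e-06). STAR, limma and mm10 appear, without versions, in the submitters' processing notes. The tool, annotation and strand option of the counting were not given in the sources used here. Symbols and coordinates came from GENCODE release M21 (GRCm38), which named 16017 of 16080 identifiers.

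One limma fit (limma 3.58.1, R 4.3.3, eBayes with trend and robust) covered all genes and the 3 genotypes without covariates, and was tested on simulated data. The call threshold was 0.05 on the p adjusted over all genes (Benjamini-Hochberg). Levels are recovered counts on the authors' scaling, as CPM of the mean scaled total, so changes are relative to the bulk of the transcriptome. Members and lists were chosen with earlier results of these data known. From each other list up to 3 called genes per direction with the smallest p against WT and a mean of at least 1 normalized CPM were named. Replicate numbers were not treated as pairs. Alternatives covered scaling, variance model, a filter, weights, a replicate block and each library left out.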

Additional observations from a re-analysis of the deposited data

Results flagged for a closer look

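In 108 groups of 4 libraries (36 genes in 3 genotypes), 3 had 1 library whose distance to the nearest other took more of the group's range than Dixon's 95% critical value allows; chance flags about 1 in 20 groups. Btg2 in C185G replicate 3 was at 222.8 normalized CPM, with the others between 237.3 and 238.4. Bbc3 in C185Gneo replicate 4 was at 26.82, with the others between 31.48 and 31.59. Bbc3 in C185G replicate 1 was at 38.47, with the others between 30.73 and 31.66.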

How the results depend on the processing

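Of the 24 members called in C185G against WT, 21 kept their call in every setting in which they were tested (the 5 CPM minimum leaves out Eda2r and other low genes), and of the 24 called against C185Gneo 22 did; Fas, Pidd1, Epha2 and Xpc are the exceptions, and no called member changed direction. Over the scalings, variance models, filter and weights the counts against WT ran from 17 to 18 higher and 5 to 8 lower, and against C185Gneo from 16 to 18 higher and 5 to 9 lower. With 1 library left out they ran from 16 to 18 and 5 to 8 against WT, and from 17 to 18 and 6 to 10 against C185Gneo. Between the controls the member count was 0 throughout. The other 6 lists held 33, 47, 33, 20, 22 and 19 measured genes. With both directions pooled, 123 of them were called against WT (112 to 122 with 1 library left out), beside 55.0% of all genes. Against C185Gneo 123 were called (115 to 126), beside 57.8% of all genes. Between the controls 1 was called, beside 0.541%. A minimum mean of 5 normalized CPM took that 1 to 0, since Gls2 is below that level.

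Replicate numbers come only from the titles. Same-numbered libraries of different groups had correlated deviations from -0.30 to 0.25, so the numbers were not read as pairs; with a replicate block 17 members were higher and 6 lower than in WT, and Fas (0.30) had an adjusted p = 0.054. Against C185Gneo the block gave 17 and 7.

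Only members that had not passed the test changed sign. With library quality weights Ddb2 against WT was -0.0136 and Pmaip1 against C185Gneo 0.129, and with library totals Pmaip1 was 0.0386 and Gadd45a 0.0353 against C185Gneo. With 1 library left out, Pmaip1 ran from -0.492 to 0.0155 against WT, Plk3 from -0.209 to 0.027, Ddb2 from -0.0618 to 0.144, Fdxr from -0.211 to 0.0004 and Apaf1 from -0.0259 to 0.0969. Against C185Gneo, Pmaip1 ran from -0.243 to 0.265, Plk3 from -0.0568 to 0.179, Gadd45a from -0.109 to 0.0281 and Ercc5 from -0.0397 to 0.0837. The cause was not tested. One read is 0.0639 CPM, before the library factor is applied, in the shallowest library, and Eda2r had as few as 10 counts and Pmaip1 24.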

Other observations

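Within C185Gneo, replicate 1 held the lowest value of 17 of the 36 genes, among them Cdkn1a, Btg2, Trp53inp1, Eda2r, Plk3, Aen and Fas, and replicate 4 the highest of 13. The same replicate 1 had the lowest summed mesenchymal markers of its group (154.6 normalized CPM, others 340.1 to 466.5) and the lowest mesothelial markers (65.35, others 260.7 to 558.5). Within C185G, replicate 1 held the highest value of 16 genes, including Trp53, Phlda3, Aen and Eda2r, and the lowest of 12, including Perp, Plk3, Pmaip1 and Xpc.

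Between the control genotypes, 1 gene of the other lists was called, 1 of the 47 measured other p53 targets, beside 0.541% of all genes. This gene was Gls2, a glutaminase and p53 target, named here after its values were seen. Gls2 rose by 1.30 in C185Gneo against WT (limma adjusted p = 0.00458), from 2.31 ± 0.319 to 5.81 ± 1.29 normalized CPM. In the C185G libraries it was 1.76 ± 0.314.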
